A study of Schmidtea mediterranea with 40 samples.

Results

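The genes described here are 4 components of the activin pathway of the planarian *Schmidtea mediterranea*, each chosen by its contig, or assembled transcript, among the 28742 contigs of the deposited count table. They are the ligands *activin-2* (dd_Smed_v6_3324_0_1) and *inhibin-1* (dd_Smed_v6_7607_0_1), the receptor *ActR-1* (dd_Smed_v6_3426_0_1) and the antagonist *follistatin* (dd_Smed_v6_9584_0_1), and all 4 had enough reads to be tested in every comparison. Their levels were compared in 40 RNA sequencing libraries of wounded post-pharyngeal fragments of the strain CIW4. Of these, 20 came from animals fed *activin-2* dsRNA (RNAi) and 20 from control RNAi animals, which were fed dsRNA of the *C. elegans* gene *unc-22*. In both arms dsRNA was fed 4 times in a period of 14 days, amputation followed 7 days later, and a replicate held 5 wounds. Each arm has 3 libraries at posterior-facing wounds labelled 0, 6, 24 and 48 hours post amputation (hpa), and 4 libraries each at posterior-facing and at anterior-facing wounds labelled 18 hpa. Labels name no orientation at 0 hpa, and the posterior-facing one used here is taken from the study. Nothing states that the replicates came from separate cultures, so the p-values measure the spread between these libraries, which may be technical.

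Activins and inhibins are secreted ligands of the TGF-β family. An activin binds a type II receptor, which recruits and phosphorylates a type I receptor. The active receptor phosphorylates Smad proteins that move to the nucleus and regulate transcription. Whether the product of planarian *inhibin-1* signals in this way was not tested. Follistatin binds activin outside the cell and blocks its access to the receptor. In planarians, *follistatin* is known as a wound-induced gene needed for the response to missing tissue, and *activin-2* RNAi is known to suppress the regeneration failure of *follistatin* RNAi animals.

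The total count was between 2524235 and 13381025 reads per library, with a median of 10533396. Levels are given in RPM, reads per 1000000 counted reads, in which 1 read was worth 0.0747 to 0.396. RPM are not divided by transcript length, so levels were compared between libraries and not between genes, and where a contig is described below as having the most reads of its role, this is only how it was chosen and partly reflects its length. The shallowest library, replicate 3 of *activin-2* RNAi labelled 48 hpa, held 7 reads of *activin-2*, 52 of *inhibin-1*, 212 of *ActR-1* and 35 of *follistatin*. The time labels were checked with the mean log2 level, centred per gene, of 127 of the 128 wound-induced genes listed by the study. It was lowest in the libraries labelled 24 hpa, at -0.46 in *activin-2* RNAi and -0.66 in control RNAi, and in those labelled 48 hpa it was 0.22 in *activin-2* RNAi and 0.17 in control RNAi. Since wound-induced genes are low in fresh wounds, the times are used here as names of sets of libraries, and no course over time is drawn from them. In bulk tissue, fewer cells of a type and less RNA per cell cannot be told apart.

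*activin-2*, the targeted ligand, was depleted in 4 of the 6 pairs of groups, but not called in either pair labelled 18 hpa. In *activin-2* RNAi it was 3.26, 3.39 and 2.68 RPM in the libraries labelled 0 hpa, against 30.3, 40.9 and 40.2 RPM in control RNAi. In those labelled 6 hpa it was 2.25, 2.92 and 3.09 RPM in *activin-2* RNAi, against 45.8, 40.2 and 42.6 RPM in control RNAi. These groups lie far apart and none of their libraries overlap. In those labelled 24 hpa it was 4.03, 4.48 and 2.30 RPM in *activin-2* RNAi, against 51.2, 48.3 and 54.0 RPM in control RNAi. In those labelled 48 hpa it was 4.61, 5.55 and 2.77 RPM in *activin-2* RNAi, against 43.9, 39.2 and 43.6 RPM in control RNAi. The *activin-2* RNAi libraries lay below control RNAi without overlap in these 4 sets, as did 15.6%, 15.4%, 8.58% and 9.04% of 14971 contigs tested in all pairs. The mean level in *activin-2* RNAi was 0.0837, 0.0643, 0.0705 and 0.102 times that of control RNAi in the sets labelled 0, 6, 24 and 48 hpa. The log2 fold changes were -3.45, -3.85, -3.91 and -3.15, with adjusted p of 2.69e-07, 5.55e-06, 5.41e-08 and 2.39e-06 in that order (quasi-likelihood test of edgeR, with p adjusted by Benjamini-Hochberg over every contig tested).

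At 18 hpa the *activin-2* reads went against the RNAi label in part of the libraries. At anterior-facing wounds *activin-2* was 29.5, 85.8, 25.8 and 47.8 RPM in the libraries labelled *activin-2* RNAi, against 28.7, 28.9, 31.9 and 27.1 RPM in control RNAi. The highest *activin-2* level of all 40 libraries, 85.8 RPM, was therefore in a library labelled as RNAi of that gene. At posterior-facing wounds it was 70.1, 16.6, 6.02 and 3.63 RPM in the libraries labelled *activin-2* RNAi, against 33.4, 37.7, 36.9 and 44.3 RPM in control RNAi. Of these 4 RNAi libraries the last lay within the range of the depleted sets, replicates 2 and 3 lay above that range and below the controls, and replicate 1 lay above all controls. The log2 fold changes were 0.69 (standard error 0.30, adjusted p = 0.301) at anterior-facing and -0.79 (standard error 0.53, adjusted p = 0.407) at posterior-facing wounds, by the same test in edgeR. Without replicate 1 of the posterior-facing *activin-2* RNAi libraries, the fall at posterior-facing wounds was -2.18 on the log2 scale (edgeR, adjusted p = 1.73e-04). The counts do not separate transcripts of the gene from any reads of the fed dsRNA. This limits what these levels and the ratios below mean. The 85.8 and 70.1 RPM lay above all 20 control RNAi libraries, whose highest level was 54.0 RPM. Whether a weak knockdown, reads of the dsRNA or a label error was present was not tested. The results at 18 hpa are read by label.

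**Figure D1:**
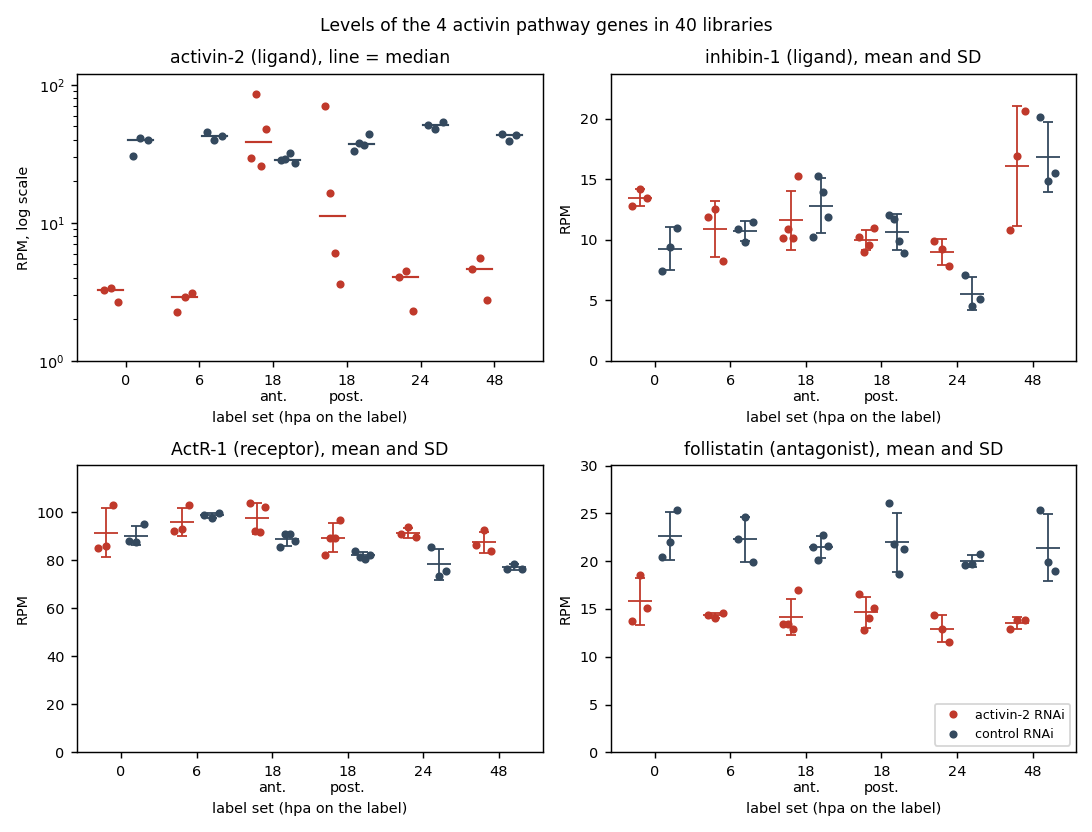
Level of each of the 4 genes in RPM (y axis) in every library (points), by the hours post amputation on the label (x axis, ant. and post. for anterior-facing and posterior-facing wounds). *activin-2* RNAi is red and left of control RNAi in dark blue, with the mean and SD, or for *activin-2* the median on a log axis, and *follistatin* is lower in *activin-2* RNAi in all 6 pairs without overlap while *activin-2* itself is not depleted in part of the libraries labelled 18 hpa.

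*follistatin*, the antagonist, was lower after *activin-2* RNAi in every pair of groups, and in all 6 pairs no *activin-2* RNAi library reached the lowest control RNAi library. Over all sets it ranged between 11.5 and 18.6 RPM in *activin-2* RNAi (median 13.9, n = 20) and between 18.6 and 26.1 RPM in control RNAi (median 21.4, n = 20). Among the 14971 contigs tested in all 6 pairs, 0.528% were lower without overlap in all 6. At 18 hpa alone, 4.84% of contigs were lower without overlap at anterior-facing and 5.76% at posterior-facing wounds. In the libraries labelled 0 hpa *follistatin* was 13.8, 18.6 and 15.1 RPM in *activin-2* RNAi, against 20.5, 22.04 and 25.4 RPM in control RNAi. In those labelled 6 hpa it was 14.3, 14.0 and 14.6 RPM in *activin-2* RNAi, against 22.3, 24.7 and 19.9 RPM in control RNAi. The RNAi values of the set labelled 6 hpa were the tightest of the 6 sets, with an SD of 0.306 RPM.

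The same separation was seen at both wound faces at 18 hpa. At anterior-facing wounds *follistatin* was 13.4, 13.4, 12.9 and 17.02 RPM in the libraries labelled *activin-2* RNAi, against 21.5, 20.1, 22.8 and 21.6 RPM in control RNAi. At posterior-facing wounds it was 16.6, 12.8, 14.0 and 15.1 RPM in the libraries labelled *activin-2* RNAi, against 26.1, 21.8, 18.6 and 21.3 RPM in control RNAi. *follistatin* was low also in the libraries with the most *activin-2* reads, at 13.4 RPM where *activin-2* was 85.8 RPM and at 16.6 RPM where it was 70.1 RPM. At 24 hpa by label it was 14.3, 12.95 and 11.5 RPM in *activin-2* RNAi, against 19.6, 19.8 and 20.7 RPM in control RNAi. In those labelled 48 hpa it was 12.9, 13.9 and 13.9 RPM in *activin-2* RNAi, against 25.4, 19.9 and 19.0 RPM in control RNAi. The groups do not overlap in either set.

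The mean level of *follistatin* in *activin-2* RNAi was 0.632 to 0.698 times that of control RNAi over the 6 pairs. In the quasi-likelihood test of edgeR, adjusted by Benjamini-Hochberg, it fell by 0.59 on the log2 scale in the libraries labelled 6 hpa (standard error 0.098, adjusted p = 0.0280), and at 18 hpa by 0.60 at anterior-facing (standard error 0.10, adjusted p = 0.00602) and 0.62 at posterior-facing wounds (standard error 0.10, adjusted p = 8.83e-04). It fell by 0.76 in those labelled 24 hpa (standard error 0.11, adjusted p = 8.83e-04) and by 0.72 in those labelled 48 hpa (standard error 0.14, adjusted p = 0.0259). In those labelled 0 hpa its effect was -0.47 (standard error 0.13), which did not pass (adjusted p = 0.0603 in edgeR), but it did without replicate 2 of *activin-2* RNAi (edgeR adjusted p = 0.0280). The calls in the sets labelled 6 and 48 hpa were not stable, since each was lost when any 1 of 4 of its 6 libraries was left out, with adjusted p up to 0.101 and 0.119 in edgeR. The mean of the 6 effects, a contrast chosen after the values had been seen, was -0.63 (standard error 0.047, edgeR adjusted p = 4.18e-13), where 27.8% of 18350 contigs were called. Without the libraries labelled 18 hpa it was -0.64 (edgeR adjusted p = 2.52e-10, 23.2% of contigs called).

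Apart from the RNAi arm, *follistatin* varied little. Over the 5 sets of posterior-facing wounds, the group means lay between 12.9 and 15.8 RPM in *activin-2* RNAi and between 20.03 and 22.6 RPM in control RNAi. No difference among these sets passed edgeR's quasi-likelihood F test in *activin-2* RNAi (adjusted p = 0.311) or in control RNAi (adjusted p = 0.936), so the order of the means has no neighbours that differ beyond their spread. Posterior-facing over anterior-facing wounds, the log2 fold change of *follistatin* was 0.05 (standard error 0.11) in *activin-2* RNAi and 0.08 (standard error 0.10) in control RNAi. The RNAi effect on *follistatin* did not differ detectably among the 5 sets (interaction F test in edgeR, adjusted p = 0.664).

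Markers of the tissues in the fragments moved with the arms in part. The pharynx marker dd_Smed_v6_554_0_1 was 17.1 to 46.8 RPM at posterior-facing wounds of the libraries labelled *activin-2* RNAi at 18 hpa, against 0.0870 to 0.996 RPM in control RNAi, and 6.98 to 48.6 RPM in the *activin-2* RNAi libraries labelled 24 hpa, against 4.66 to 16.4 RPM in control RNAi. At 6 hpa by label it was 0.899 to 10.8 RPM in *activin-2* RNAi and 0.0756 to 0.459 RPM in control RNAi. At anterior-facing wounds at 18 hpa it was 1.53 to 6.16 RPM in the libraries labelled *activin-2* RNAi and 0.204 to 0.502 RPM in control RNAi. It was 0 to 32.8 RPM in *activin-2* RNAi and 0.0965 to 0.308 RPM in control RNAi in the set labelled 48 hpa, and 2.35 to 7.36 RPM in *activin-2* RNAi and 0 to 7.01 RPM in control RNAi in that labelled 0 hpa. At anterior-facing wounds at 18 hpa the pharynx marker was higher without overlap in *activin-2* RNAi, as were 4.58% of contigs tested in all pairs. The arms also lay apart at 6 hpa by label and at posterior-facing wounds at 18 hpa. For these pairs the share of contigs is not given here, so nothing is read from that separation. Among the contigs tested, the median log2 fold change over muscle-annotated contigs was between -0.07 and 0.0079 in the 6 pairs, and over gut-annotated contigs between -0.04 and 0.03. The summed level of the 1083 muscle-annotated contigs was 62559 to 98772 RPM in *activin-2* RNAi and 61670 to 83244 RPM in control RNAi, and that of the 924 gut-annotated contigs 102364 to 126666 RPM in *activin-2* RNAi and 99708 to 119040 RPM in control RNAi. The stem cell marker *smedwi-1* was higher without overlap in *activin-2* RNAi labelled 0, 24 and 48 hpa and at anterior-facing wounds at 18 hpa. So were 7.88%, 33.0%, 15.3% and 4.58% of contigs in that order. Labelled 0 hpa it was 916 to 944 RPM, against 721 to 820 RPM in control RNAi. At posterior-facing wounds at 18 hpa it was 876 to 925 RPM, against 741 to 836 RPM. The arms overlapped at 6 hpa by label (988 to 1069 and 1018 to 1112 RPM). The part of the pharynx and stem cell signals in the differences of the 4 genes was not tested.

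*inhibin-1*, a second ligand of the activin and inhibin group, differed more between the labelled sets than between the RNAi arms. The study names *inhibin-1* among known wound-induced genes expressed in muscle. In the libraries labelled 0 hpa it was 12.8, 14.2 and 13.5 RPM in *activin-2* RNAi, against 7.40, 9.45 and 10.97 RPM in control RNAi. In those labelled 24 hpa it was 9.86, 9.27 and 7.84 RPM in *activin-2* RNAi, against 7.10, 4.50 and 5.08 RPM in control RNAi. In these 2 sets every *activin-2* RNAi library lay above every control RNAi library, as did 7.88% and 33.0% of the 14971 contigs. The log2 fold change was 0.59 (standard error 0.14, edgeR adjusted p = 0.0346) in the set labelled 0 hpa and 0.55 (standard error 0.19, edgeR adjusted p = 0.0770) in that labelled 24 hpa, where it passed without replicate 1 of control RNAi (edgeR adjusted p = 0.0208). The call at labelled 0 hpa was lost when any 1 of 5 of its 6 libraries was left out, with edgeR adjusted p up to 0.206 without replicate 1 of control RNAi, and it was also lost in DESeq2 (adjusted p = 0.0533).

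In the other sets the arms overlapped. In the libraries labelled 6 hpa *inhibin-1* was 11.9, 12.5 and 8.27 RPM in *activin-2* RNAi, against 10.9, 9.83 and 11.5 RPM in control RNAi. In those labelled 48 hpa it was 10.8, 16.9 and 20.6 RPM in *activin-2* RNAi, against 20.2, 14.9 and 15.5 RPM in control RNAi. The group means of this set were the highest of *inhibin-1* in both arms, although single libraries overlap those of other sets. At 18 hpa it was 10.1, 10.9, 10.1 and 15.3 RPM at anterior-facing wounds labelled *activin-2* RNAi, against 10.2, 15.3, 14.0 and 11.9 RPM in control RNAi. At posterior-facing wounds it was 10.2, 9.02, 9.61 and 10.98 RPM in the libraries labelled *activin-2* RNAi, against 12.02, 11.8, 9.92 and 8.95 RPM in control RNAi. The log2 fold changes in these 4 pairs lay between -0.19 and 0.07, with edgeR adjusted p from 0.5003 to 0.894.

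Over the 5 sets of posterior-facing wounds, *inhibin-1* differed in both arms (edgeR's quasi-likelihood F test, adjusted p = 0.00774 in *activin-2* RNAi and 9.37e-06 in control RNAi), in fits where 47.4% and 60.7% of all contigs were called. In *activin-2* RNAi the sets labelled 48 and 24 hpa stood at the ends of the order, at 16.1 ± 4.93 and 8.99 ± 1.04 RPM (SD, n = 3). Among these 5 sets the mean level of the wound-induced genes had the same ends in both arms, so this order is not particular to *inhibin-1*. In control RNAi the mean was highest in the set labelled 48 hpa at 16.9 ± 2.88 RPM, followed by 6 hpa (10.7 ± 0.832), 18 hpa (10.7 ± 1.47), 0 hpa (9.27 ± 1.79) and 24 hpa (5.56 ± 1.37, SD, n = 3 or 4). The set labelled 48 hpa exceeded those labelled 0, 6, 18 and 24 hpa by 1.00, 0.78, 0.77 and 1.55 on the log2 scale, in contrasts where 12%, 18.3%, 39.3% and 12.7% of contigs were called. That labelled 24 hpa lay below the sets labelled 0, 6 and 18 hpa, with differences of -0.55, -0.77 and -0.78, while these 3 sets did not differ detectably from each other. Its difference from the set labelled 0 hpa was lost when any 1 of 4 libraries was left out, with edgeR adjusted p of up to 0.193 without replicate 3 of the set labelled 0 hpa. The difference between the sets labelled 48 and 24 hpa was 0.79 on the log2 scale in *activin-2* RNAi (standard error 0.20, edgeR adjusted p = 0.0286, 4.09% of contigs called) and 1.55 in control RNAi (standard error 0.18, edgeR adjusted p = 6.03e-06). In *activin-2* RNAi that call was lost when any 1 of 4 libraries was left out, with edgeR adjusted p up to 0.130 without replicate 3 of the set labelled 24 hpa. Whether the RNAi effect on *inhibin-1* differed among the sets did not pass the test (interaction F test in edgeR, adjusted p = 0.0977), but did without replicate 3 of *activin-2* RNAi labelled 48 hpa (edgeR adjusted p = 0.0487).

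The differences of *activin-2* among the 5 sets in *activin-2* RNAi (edgeR F test, adjusted p = 0.00234) came from the set labelled 18 hpa, which exceeded those labelled 0 and 6 hpa by 2.76 and 2.93 on the log2 scale (30.1% and 42.5% of contigs called), while the sets labelled 24 and 48 hpa differed from it by -2.58 and -2.16 (28.9% and 33.7% called). Without replicate 1 of the set labelled 18 hpa, the 4 differences were 1.35, 1.51, -1.18 and -0.76. The last of these contrasts was lost when any 1 of 4 libraries was left out, with edgeR adjusted p up to 0.157 without replicate 1 of the set labelled 18 hpa. *activin-2* was also unevenly expressed in control RNAi (edgeR F test over the 5 sets, adjusted p = 2.31e-04, but 0.600 with all 12 groups in 1 fit). Its mean was highest in the control RNAi set labelled 24 hpa, at 51.2 ± 2.83 RPM, followed by 6 hpa (42.8 ± 2.83), 48 hpa (42.3 ± 2.65), 18 hpa (38.1 ± 4.56) and 0 hpa (37.2 ± 5.91, SD, n = 3 or 4). The set labelled 24 hpa exceeded those labelled 0, 6 and 18 hpa by 0.65, 0.43 and 0.58 on the log2 scale, in contrasts where 29.7%, 29.5% and 47.8% of contigs were called. All 3 calls were lost with all 12 groups in 1 fit (edgeR adjusted p = 0.291, 0.501 and 0.229), and that against the set labelled 6 hpa also with library size only (difference 0.26, edgeR adjusted p = 0.0645). The set labelled 48 hpa did not differ detectably from that labelled 24 hpa (difference -0.32, edgeR adjusted p = 0.0556). By group mean only, *activin-2* was highest and *inhibin-1* lowest of the 5 sets in the control RNAi libraries labelled 24 hpa. Their log2 levels had a Pearson r of -0.26 over the 20 control RNAi libraries.

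*ActR-1*, whose closest human match is the type I receptor TGFBR1, changed little with RNAi. It ranged between 82.1 and 104 RPM in *activin-2* RNAi (median 92.0, n = 20) and between 73.6 and 99.7 RPM in control RNAi (median 85.5, n = 20). At 24 hpa by label it was 90.9, 93.7 and 89.6 RPM in *activin-2* RNAi, against 85.7, 73.6 and 75.3 RPM in control RNAi. In those labelled 48 hpa it was 86.1, 92.4 and 84.0 RPM in *activin-2* RNAi, against 76.5, 78.5 and 76.5 RPM in control RNAi. In these sets, and at anterior-facing wounds at 18 hpa, the *activin-2* RNAi libraries lay above the control RNAi libraries without overlap, as did 33.0%, 15.3% and 4.58% of the 14971 contigs.

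None of the 6 RNAi effects on *ActR-1* passed the test, with log2 fold changes between -0.0017 and 0.14 and edgeR adjusted p from 0.444 to 0.991. The mean of the 6 effects was 0.07 (standard error 0.028, edgeR adjusted p = 0.0460), and without the libraries labelled 18 hpa it was 0.06 and did not pass (edgeR adjusted p = 0.198). In *activin-2* RNAi the differences of *ActR-1* among the 5 sets did not pass the edgeR F test (adjusted p = 0.279). In control RNAi *ActR-1* differed among them (edgeR F test, adjusted p = 0.0219), with 98.7 ± 0.987 RPM in the set labelled 6 hpa and 77.2 ± 1.152 RPM in that labelled 48 hpa (SD, n = 3). The call was lost without replicate 1 (adjusted p = 0.0791) or replicate 3 (adjusted p = 0.0733) of the control RNAi libraries labelled 6 hpa, in the same edgeR test.

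Counted over the 4 genes, 2 were called in the RNAi pair labelled 0 hpa (*activin-2* and *inhibin-1*, with 4.22% of all contigs called), 2 in that labelled 6 hpa (2.00% of contigs), 2 in that labelled 24 hpa (12.5%) and 2 in that labelled 48 hpa (2.33%), each of these last 3 being *activin-2* and *follistatin*. At 18 hpa *follistatin* alone was called, at anterior-facing (2.64% of contigs) and at posterior-facing wounds (8.93%). In *activin-2* RNAi none of the 4 was called between the faces, posterior-facing over anterior-facing, where 18.4% of contigs were called by edgeR, none was under an unadjusted p of 0.05 and none was called by DESeq2. In control RNAi 1 gene was called between the faces, where 15.4% of contigs were called. This was *activin-2*, with a log2 fold change of 0.44 (standard error 0.093, edgeR adjusted p = 0.00564), a call lost with all 12 groups in 1 fit (0.43, edgeR adjusted p = 0.537). The interaction of RNAi and wound face called none of the 4 either (edgeR, none under an unadjusted p of 0.05, none by DESeq2), with 0.0941% of contigs called. Over the labelled sets, the RNAi effect differed for *activin-2* (interaction F test in edgeR, adjusted p = 0.00821, 5.54% of contigs called).

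**Figure D2:**
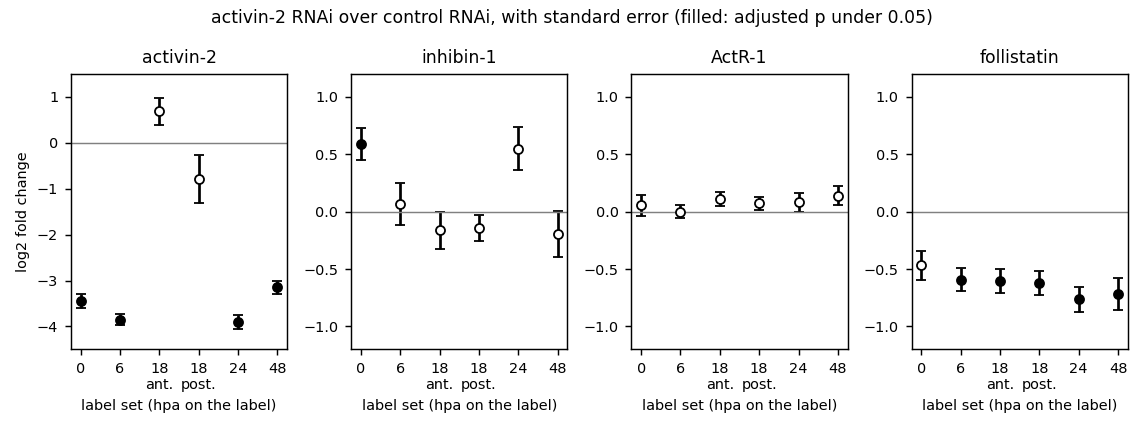
RNAi effect (*activin-2* RNAi over control RNAi, log2) and its standard error (y axis, a wider scale for *activin-2*) in the 6 pairs of groups (x axis, hours post amputation on the label) for each of the 4 genes, with filled points where the edgeR adjusted p was under 0.05. *follistatin* lies between -0.47 and -0.76 in every pair and is filled in 5 of them, while *ActR-1* stays near 0.

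The balance of ligand to antagonist was taken in each library as the log2 ratio of reads of a ligand to those of *follistatin*, with a pseudocount of 0.5 reads. Transcript length cancels when such ratios are compared between libraries, but a ratio is not a ratio of molecules. The ratio of *inhibin-1* to *follistatin* was higher on average in *activin-2* RNAi in 6 of 6 pairs. In the libraries labelled 0 hpa it was -0.11, -0.38 and -0.16 in *activin-2* RNAi, against -1.46, -1.21 and -1.21 in control RNAi. In those labelled 24 hpa it was -0.54, -0.48 and -0.55 in *activin-2* RNAi, against -1.46, -2.12 and -2.02 in control RNAi. These are the widest separations of this ratio, by 1.08 and 1.34 on the log2 scale, or 2.11-fold and 2.54-fold.

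At posterior-facing wounds at 18 hpa the ratio of *inhibin-1* to *follistatin* was -0.69, -0.51, -0.54 and -0.46 in the libraries labelled *activin-2* RNAi, against -1.11, -0.89, -0.91 and -1.25 in control RNAi, again without overlap. The difference was 0.49 (exact two-sided permutation test, p = 0.0286, or 0.141 after adjustment over the 16 ratio tests), and no smaller p can come from 4 libraries against 4. In the libraries labelled 48 hpa it was -0.25, 0.28 and 0.56 in *activin-2* RNAi, against -0.33, -0.42 and -0.29 in control RNAi, a difference of 0.55 without overlap. The differences of 0.63 in the set labelled 6 hpa and 0.46 at anterior-facing wounds at 18 hpa came with overlapping groups. None of the 16 ratio tests passed after adjustment, and none could have at these group sizes, where 3 libraries against 3 cannot go below an exact p of 0.1. Since *follistatin* is the denominator, a fall of *follistatin* and a rise of this ratio are not separate results.

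The ratio of *activin-2* to *follistatin* followed the depletion of *activin-2*. In *activin-2* RNAi its mean was -2.32, -2.38, -1.88 and -1.68 in the sets labelled 0, 6, 24 and 48 hpa, against 0.71, 0.95, 1.35 and 0.99 in control RNAi. The groups did not overlap in any of these sets, and the ratio was 0.122, 0.1001, 0.107 and 0.158 times that of control RNAi. At anterior-facing wounds at 18 hpa it was 1.13, 2.68, 1.00 and 1.49 in the libraries labelled *activin-2* RNAi, against 0.41, 0.53, 0.49 and 0.33 in control RNAi. Here every library labelled *activin-2* RNAi lay above every control, by 1.13 on average (two-sided exact permutation test, p = 0.0286, adjusted over the 16 tests 0.141). At posterior-facing wounds it was 2.08, 0.37, -1.22 and -2.04 in the libraries labelled *activin-2* RNAi, against 0.35, 0.79, 0.98 and 1.05 in control RNAi, with the groups overlapping (exact permutation test, p = 0.343).

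**Figure D3:**
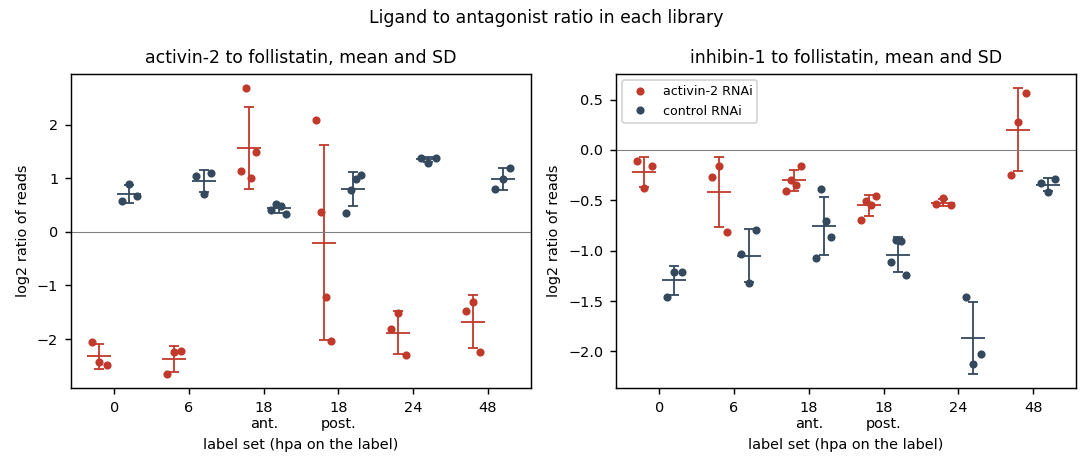
Log2 ratio of reads (y axis) of *activin-2* to *follistatin* (left) and of *inhibin-1* to *follistatin* (right) in every library (points) with the mean and SD, by the hours post amputation on the label (x axis), *activin-2* RNAi in red and left of control RNAi in dark blue. The right panel shows a higher mean in *activin-2* RNAi in all 6 pairs, and the left panel shows the ratio above control in all 4 anterior-facing libraries labelled *activin-2* RNAi at 18 hpa.

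Beyond the 4 genes, 53 contigs were listed for the TGF-β superfamily pathway by a search of descriptions and protein families in the deposited table. They are 5 ligands, 6 receptors, 10 Smads, 8 intracellular regulators, 10 antagonists and 14 Tolloid or Astacin proteases, relatives of the enzymes that cleave extracellular antagonists. Several proteases entered by a Tolloid description alone and have astacin-like or meprin human matches. A place in the pathway is not shown for them. The noggin-like contigs were listed as antagonists by annotation alone, and that function was not tested. Another contig than *inhibin-1*, dd_Smed_v6_4120_0_1, is also described as Inhibin-1, and the annotation names several receptor contigs alike, so a description does not single out 1 gene. With *activin-2* RNAi over control RNAi, 2 of 45 tested contigs of the list were called higher and 1 lower in the set labelled 0 hpa, where 1.09% of all contigs were called higher and 3.13% lower. At anterior-facing wounds at 18 hpa it was 3 of 42 higher and 1 lower (0.762% and 1.88% of all contigs), and at posterior-facing wounds 1 of 45 higher and 13 lower (3.15% and 5.78%). In the set labelled 24 hpa it was 2 of 46 higher and 14 lower (4.51% and 7.96%), and in that labelled 48 hpa 1 of 45 higher and 11 lower (0.496% and 1.84%). In the set labelled 6 hpa none of 44 was called by edgeR, with 18 under an unadjusted p of 0.05 and 3 called by DESeq2. No receptor of the list was called in any RNAi pair, and the median log2 fold change of the list was between -0.13 and 0.05, against -0.00058 to 0.02 for all contigs tested.

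Most of the contigs called lower were proteases, 11 of 13 tested at posterior-facing wounds at 18 hpa, 9 of 13 in the set labelled 24 hpa and 10 of 13 in that labelled 48 hpa. Proteases varied together between libraries, so these counts are not separate results. In the control RNAi set labelled 6 hpa, each of the 8 with the lowest adjusted p was lowest in replicate 2. For dd_Smed_v6_497_0_1 it was 69.1 RPM there, against 415 and 406 RPM in replicates 1 and 3. With all 12 groups in 1 fit, 5 contigs of the whole pathway list were called at posterior-facing wounds at 18 hpa, against 14 in the fit of the pair. The one with the most reads, dd_Smed_v6_51_1_1 (described as Tolloid like-1, with an astacin-like human match), was 3429 to 4239 RPM at posterior-facing wounds labelled *activin-2* RNAi at 18 hpa, against 6059 to 8760 RPM in control RNAi, a log2 fold change of -1.09 (standard error 0.11, edgeR adjusted p = 7.80e-06). At anterior-facing wounds it was 129 to 643 RPM in the libraries labelled *activin-2* RNAi and 206 to 466 RPM in control RNAi, so that its level differed far more between the wound faces than between the arms. Posterior-facing over anterior-facing, 9 of 13 tested proteases were called higher in each arm, where 9.51% of all contigs were called higher in *activin-2* RNAi and 8.19% in control RNAi, and the log2 fold change of dd_Smed_v6_51_1_1 was 3.24 in *activin-2* RNAi and 4.74 in control RNAi. In 3 others, dd_Smed_v6_497_0_1, dd_Smed_v6_345_0_1 and dd_Smed_v6_961_0_1, the RNAi effect differed between the wound faces (interaction in edgeR, adjusted p = 0.00226, 0.00226 and 0.00451). For dd_Smed_v6_497_0_1, with a meprin-like human match, it was 284 to 441 RPM at posterior-facing wounds labelled *activin-2* RNAi, against 546 to 896 RPM in control RNAi, and 11.9 to 58.5 RPM at anterior-facing wounds labelled *activin-2* RNAi, against 2.48 to 6.02 RPM in control RNAi. These 3 contigs were the 3 list members called higher at anterior-facing wounds.

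Among the other ligands, 2 contigs chosen after their values had been seen stood out. *Admp-1b* (dd_Smed_v6_12939_2_1), a BMP-type ligand, was 4.80, 6.50 and 5.26 RPM in *activin-2* RNAi in the set labelled 0 hpa, against 9.04, 10.9 and 11.9 RPM in control RNAi. It was called lower in that set and in those labelled 18 hpa (both faces) and 24 hpa, by 0.74 to 1.04 on the log2 scale. In edgeR its adjusted p was 0.00920 in the set labelled 0 hpa, 8.48e-04 and 0.00349 at anterior-facing and posterior-facing wounds at 18 hpa and 0.00162 in that labelled 24 hpa. The contig dd_Smed_v6_12035_0_1, with a TGF-β family domain and no gene name, was 0.429, 0.199 and 0.0852 RPM in *activin-2* RNAi in the set labelled 24 hpa, against 4.98, 4.13 and 4.82 RPM in control RNAi, with few reads in the RNAi libraries (log2 fold change -3.62, standard error 0.31, edgeR adjusted p = 1.87e-05). The ligand of the list with the most reads, dd_Smed_v6_4120_0_1, was not called in any RNAi pair, with log2 fold changes between 0.08 and 0.48.

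The contigs with the most reads in each of the other roles were not called between the arms. The Smad contig with the most reads, dd_Smed_v6_1923_0_1 (Smad4, the partner that all receptor-activated Smads share), had log2 fold changes between -0.10 and 0.04 over the 6 RNAi pairs. The SMURF1-like contig dd_Smed_v6_9145_0_1, a ubiquitin ligase that acts on Smads in vertebrates, had log2 fold changes between -0.06 and 0.08. The receptor contig with the most reads, dd_Smed_v6_7151_0_1, lay between -0.04 and 0.37. Of the contigs listed as antagonists by annotation, that with the most reads, the noggin-like nlg8 (dd_Smed_v6_8738_0_1), lay between 0.0017 and 0.22. None of these 4 contigs was called in an RNAi pair. The inhibitory Smad *SMAD6/7-1* (dd_Smed_v6_9186_0_1), named after its values had been seen, was 14.6, 18.9 and 16.1 RPM in *activin-2* RNAi in the set labelled 0 hpa, against 9.72, 9.08 and 14.0 RPM in control RNAi. It rose there by 0.61 on the log2 scale (standard error 0.15, edgeR adjusted p = 0.0382). Contigs of the list called in that set numbered 3, and 1 with the replicate block or without replicate 2 of *activin-2* RNAi, so this call may not be stable. *SMAD6/7-1* was higher at posterior-facing than at anterior-facing wounds by 0.71 in *activin-2* RNAi (edgeR adjusted p = 6.10e-04) and by 0.63 in control RNAi (edgeR adjusted p = 0.00194).

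**Figure D4:**
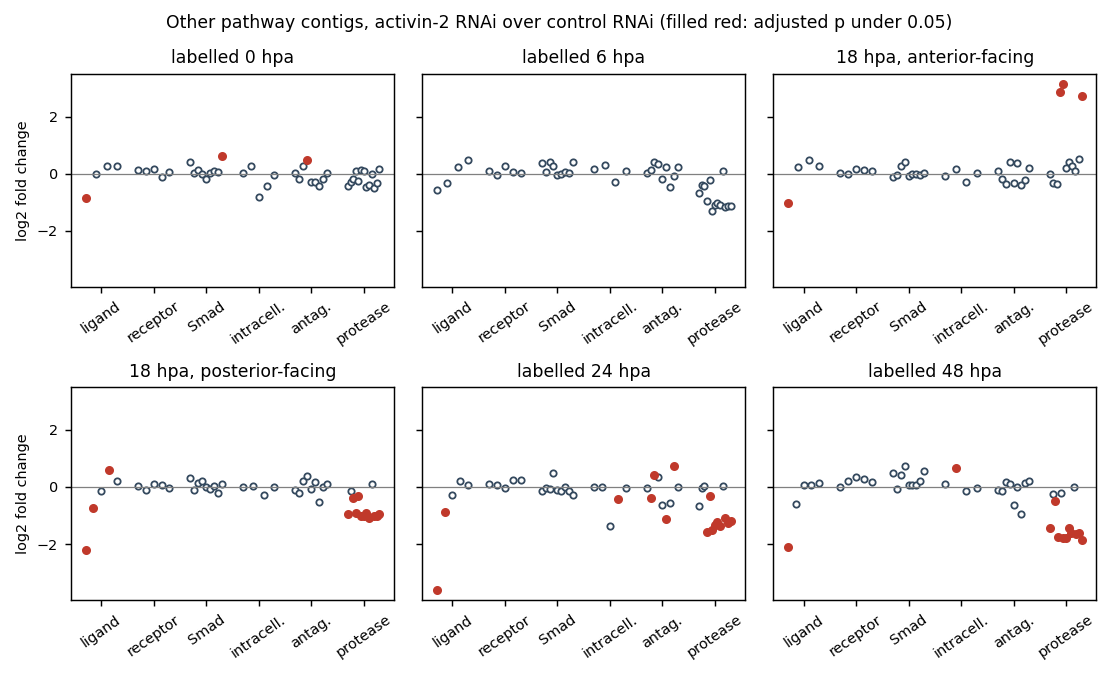
RNAi effect (*activin-2* RNAi over control RNAi, log2, y axis) for each tested contig of the 53 other pathway contigs, grouped by role (x axis), 1 panel per pair of groups, with filled red points where the edgeR adjusted p was under 0.05. The proteases hold 11, 9 and 10 of the contigs called lower at posterior-facing wounds at 18 hpa and in the sets labelled 24 and 48 hpa, while no receptor is filled in any panel.

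Similarity of pattern was taken as Pearson's r of log2 CPM (TMM-normalised) over the 20 control RNAi libraries, among 15977 other contigs, and these libraries share their label sets, so that r reflects differences between sets. The contig most like *inhibin-1* by this r was another member of the pathway list, the noggin-like dd_Smed_v6_14068_0_1 (r = 0.92, and 0.54 over the 20 *activin-2* RNAi libraries). It was followed by the actin-bundling *fascin-1*, dd_Smed_v6_996_0_1 (r = 0.89, and 0.77), and an SRSF10-like splicing factor, dd_Smed_v6_1695_0_1 (r = 0.86, and 0.63). With rank correlation 1 of these 3 contigs stayed among the 3 most similar, and with group means 0, so their place is not stable. The noggin-like contig was 12.8 to 17.5 RPM in the control RNAi set labelled 48 hpa and 2.57 to 4.13 RPM in that labelled 24 hpa, the same ends as *inhibin-1*. Its cell cluster in the deposited table is wound-response muscle, and a link within the pathway was not tested. The contigs most like *activin-2* were a netrin 1 contig, dd_Smed_v6_9737_0_1 (r = 0.93), dd_Smed_v6_3126_0_1 (r = 0.93) and a FEZ1-like contig, dd_Smed_v6_6037_0_1 (r = 0.93). Over the *activin-2* RNAi libraries r was -0.30, -0.72 and -0.78. In that arm *activin-2* is the targeted gene, and its group means were highest in the sets labelled 18 hpa. These r therefore cannot be read as a change of its expression pattern. For *ActR-1* they were an LRWD1-like contig, dd_Smed_v6_3294_1_1 (r = 0.94), dd_Smed_v6_13044_0_1 (r = 0.90) and an ARNT-like contig, dd_Smed_v6_9171_0_1 (r = 0.88). For *follistatin*, whose level hardly moved among the control RNAi libraries, no contig exceeded r = 0.68 (dd_Smed_v6_20132_0_1), and over the *activin-2* RNAi libraries r was between -0.03 and 0.06 for the 3 nearest contigs. Among the 4 genes themselves, the highest r over the control RNAi libraries was 0.30, between *activin-2* and *follistatin*.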

How the data were processed

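RNA of 40 libraries was sequenced by the authors from a stranded mRNA kit, mapped with bowtie to the dd_Smed_v6 transcriptome, counted with coverageBed and summed over isotigs. The submitters' processing notes list CASAVA 1.9, cutadapt 1.8, Bowtie 1.2 and SAMtools 1.6. The deposited values are raw read counts per contig, without normalization. A second deposited table holds the authors' fold changes and p-values, which were not used, and the annotation from which the pathway, muscle and gut lists were read.

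RPM are counts divided by the library total. Models were run with edgeR 4.0.16 under R 4.3.3 (TMM, a filter at a minimum count of 10 and total of 15, prior count 2, quasi-likelihood test) on the groups compared, with Benjamini-Hochberg adjustment over all contigs and calls under 0.05. Standard errors were derived as the absolute log2 fold change divided by the square root of the quasi-likelihood F. Per-contig pattern comparisons used contigs with a mean of at least 1 CPM. The wound-gene score used log2 of RPM plus 0.1. Ratios were tested with exact permutation tests in scipy, adjusted over 16. The fits were tested on simulated data. Totals of 2524235 to 13381025 reads set the precision.

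Alternatives were DESeq2 1.42.0, RLE normalization, library size only, no filter, a single fit of all 12 groups, a replicate block, leaving out each library, other pseudocounts (1 and 0.1) and medians for the ratios, and rank correlation or group means for similarity. The mean over 6 pairs was added after values were seen. Named contigs were the 4 genes, the 8 list members with the lowest adjusted p (all proteases, of which the one with the most reads is described), the contig with the highest mean RPM of each role and the 3 contigs most similar to each gene, and others are marked in the text. The members and lists were chosen with earlier results of these data known. Protein and nucleotide sequences and transcript lengths were not used here.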

Additional observations from a re-analysis of the deposited data

Results flagged for a closer look

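At anterior-facing wounds at 18 hpa, 1 library labelled *activin-2* RNAi, replicate 4, stood apart from its group for 2 genes. *follistatin* was 17.02 RPM in it and 12.9 to 13.4 RPM in the other 3, and *inhibin-1* was 15.3 RPM in it and 10.1 to 10.9 RPM in the other 3. Of 24 groups of 4 values examined, chance marks about 1 in 20. The RNAi effect on *activin-2* differed among the 5 sets of posterior-facing wounds (interaction F test in edgeR, adjusted p = 0.00821), in which the libraries labelled 18 hpa were the ones in which depletion was not called.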

How the results depend on the processing

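The calls of *activin-2* in the sets labelled 0, 6, 24 and 48 hpa, and of *follistatin* at both faces at 18 hpa and in the set labelled 24 hpa, held under every alternative run. *follistatin* in the set labelled 0 hpa passed with all 12 groups in 1 fit (-0.47) and with no filter (-0.46), and in that labelled 48 hpa it did not pass with library size only (-0.66). *inhibin-1* in the set labelled 0 hpa was not called in DESeq2 (0.61), with all 12 groups (0.58), library size only (0.54) or the replicate block (0.58), and in that labelled 24 hpa it passed with library size only (0.69), no filter (0.55) or the replicate block (0.54). With all 12 groups in 1 fit, *activin-2* lost its call among control RNAi sets (adjusted p = 0.600 in edgeR) and between wound faces in control RNAi (0.43). The effect on *ActR-1* labelled 6 hpa changed sign near 0, at 0.010 in DESeq2, 0.0049 with RLE, 0.011 with all 12 groups and 0.016 with no filter, and the *follistatin* interaction at 18 hpa was 0.0071 with library size only. The cause of these changes was not tested.

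Pathway contigs called in the set labelled 6 hpa numbered 0 in the edgeR pair fit, 3 in DESeq2, 5 with all 12 groups, 2 with library size only, 2 with no filter and 1 with the replicate block. Those in the set labelled 0 hpa numbered 3, and 1 with the replicate block. At posterior-facing wounds at 18 hpa they numbered 14, and 5 with all 12 groups, and for the interaction of RNAi and label set 2, with 4 in DESeq2 and 5 with library size only. Replicate numbers were not used to pair the libraries in the main fits, since in no comparison did every pair correlate above 0.1. With so few libraries this rule cannot exclude a pairing, and 3 of 4 pairs passed it between the arms at anterior-facing wounds at 18 hpa.

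Leaving out 1 library at a time, the log2 effect of RNAi ranged for *ActR-1* from -0.043 to 0.10 (labelled 0 hpa) and -0.027 to 0.012 (6 hpa), for *activin-2* at posterior-facing wounds at 18 hpa from -2.18 to -0.42, for *follistatin* from -0.60 to -0.38 (0 hpa), -0.66 to -0.53 (6 hpa) and -0.80 to -0.57 (48 hpa), and for *inhibin-1* from 0.45 to 0.70 (0 hpa), -0.049 to 0.25 (6 hpa), 0.41 to 0.75 (24 hpa) and -0.35 to 0.0060 (48 hpa). The interaction at 18 hpa ranged from -0.083 to 0.0044 for *ActR-1*, -2.86 to -0.99 for *activin-2*, -0.095 to 0.080 for *follistatin* and -0.087 to 0.18 for *inhibin-1*. Without replicate 1 of posterior-facing *activin-2* RNAi, that of *activin-2* passed (edgeR adjusted p = 0.0237), as did its difference between the faces in that arm (edgeR adjusted p = 0.00283), which ranged from -2.43 to -0.58. The edgeR adjusted p ranged from 0.00531 to 0.0791 for *ActR-1* among control RNAi sets and from 0.0487 to 0.188 for the *inhibin-1* interaction with label set. Pathway contigs called ranged from 1 to 8 in the set labelled 0 hpa, 0 to 5 in that labelled 6 hpa, 3 to 5 for the interaction at 18 hpa and 0 to 6 for that with label set. The ratio tests say nothing about stability, since none of the 16 could pass after adjustment at these group sizes. The most similar contigs changed for 3 of 4 genes, *activin-2*, *inhibin-1* and *follistatin*, both with rank correlation and with group means.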
